A study of Mus musculus with 4 samples.

Results

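Mitf, Tfeb, Tfe3 and Tfec make up the MiT/TFE family of transcription factors, and the open chromatin at their loci was compared between B16F10 melanoma cells carrying a scrambled guide and cells carrying a guide against Arid1a. A locus was the RefSeq gene body on GRCm38 with 50 kb on each side, and every peak that overlapped it was taken. Overlapping peaks of the 4 libraries were merged into regions, which gave 82 regions at the 4 loci of 103629 in the genome: 33 at Mitf, 25 at Tfeb, 15 at Tfe3 and 9 at Tfec. A merged region counts as present in a library when at least 1 of its bases lies under a peak of that library.

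The family's proteins carry a basic helix-loop-helix and leucine zipper domain, bind DNA as dimers with one another, and recognise E-box sequences such as those of the CLEAR and M-box elements. Mitf directs the melanocyte programme of pigment, survival and cell cycle genes, and its gene has several alternative first exons, of which the one nearest the 3′ end of the series is used in melanocytes. Tfeb and Tfe3 drive lysosome and autophagy genes and are held in the cytoplasm when mTORC1 phosphorylates them, and Tfec is best known from macrophages. Arid1a is a DNA-binding subunit of the BAF chromatin remodelling complex, which slides and evicts nucleosomes.

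B16F10 is an established mouse melanoma line, grown in vitro. The 2 groups were sgScramble (2 libraries) and sgArid1a (2 libraries), with 50000 cells in each Tn5 reaction of the Omni-ATAC protocol, in which the transposase cuts accessible DNA. The labels give no clone, passage, time after guide delivery or separate culture, so the spread between replicates may be technical and the p-values measure only that spread. The deposited lists held 82319 peaks for sgScramble replicate 1, 85613 for replicate 2, 65353 for sgArid1a replicate 1 and 71255 for replicate 2. They covered 73.9, 75.8, 53.7 and 62.6 Mb in the same order, with a median −log10 q of 7.31, 7.14, 5.05 and 5.67. Both sgArid1a lists were shorter and weaker, and replicate 1 was the shortest and weakest. The lists hold no read counts, so depth is unknown, and its part in the differences below was not tested. A peak list does not show whether a guide cut. The 2 RefSeq starts of Arid1a itself had peaks within 2 kb in all 4 libraries. These covered 2788, 2793, 1779 and 2793 bp at chr4:133753985, and 1452, 1284, 1389 and 1382 bp at chr4:133756769. The 2 windows overlap, so these values are not separate.

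The 7 melanocyte markers checked (Tyr, Tyrp1, Dct, Pmel, Mlana, Sox10 and Slc45a2) all had a peak within 1 kb of a gene end in all 4 lists. Of the markers of other cells, none of the 5 of keratinocytes and none of the 4 of endothelium had such a peak. Among the 5 leukocyte markers Lyz2 had a peak in all 4 lists, Cd3e in some, and the other 3 in none. Among the 5 fibroblast markers Col1a1 and Pdgfra had a peak in all lists, Lum in some, and the other 2 in none.

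The 4 genes have 9 RefSeq starts, and the bases before 5 of them are shown because the peaks at these starts set the members apart. Sequences run 5′ to 3′ on the gene's strand and are RefSeq's, on GRCm38.p6. Capitals mark CG dinucleotides. The bases end at the start site or at the edge of the annotated gene, whichever comes first.
Mitf, the first start, chr6:97806808-97807001, plus strand: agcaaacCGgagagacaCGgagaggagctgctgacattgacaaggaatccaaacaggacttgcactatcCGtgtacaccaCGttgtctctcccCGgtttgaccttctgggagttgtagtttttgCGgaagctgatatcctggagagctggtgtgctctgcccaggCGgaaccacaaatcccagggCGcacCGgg
Mitf, the third start, chr6:97991533-97991782, plus strand: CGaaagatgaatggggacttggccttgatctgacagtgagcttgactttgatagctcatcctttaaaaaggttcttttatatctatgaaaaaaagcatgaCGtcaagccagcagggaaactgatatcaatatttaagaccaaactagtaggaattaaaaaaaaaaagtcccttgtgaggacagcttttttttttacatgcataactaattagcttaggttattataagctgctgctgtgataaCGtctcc
Tfeb, the first start, chr17:47736787-47737036, plus strand: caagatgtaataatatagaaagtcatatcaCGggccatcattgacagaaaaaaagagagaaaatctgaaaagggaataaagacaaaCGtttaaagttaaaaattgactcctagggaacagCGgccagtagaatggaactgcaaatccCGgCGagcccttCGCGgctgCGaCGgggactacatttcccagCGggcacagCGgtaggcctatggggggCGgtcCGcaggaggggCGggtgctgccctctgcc
Tfe3, the first start, chrX:7762411-7762529, plus strand: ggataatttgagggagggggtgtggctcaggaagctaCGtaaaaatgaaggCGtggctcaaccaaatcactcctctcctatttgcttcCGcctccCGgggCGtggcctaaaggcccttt
Tfec, the only start, chr6:16898465-16898691, minus strand: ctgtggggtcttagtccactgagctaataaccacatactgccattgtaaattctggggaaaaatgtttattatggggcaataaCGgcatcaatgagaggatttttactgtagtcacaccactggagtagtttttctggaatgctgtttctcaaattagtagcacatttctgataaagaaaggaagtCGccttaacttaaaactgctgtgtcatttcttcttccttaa
Over the 250 bases before each start, the first start of Mitf was 59.6% G or C with 15 CG, the first of Tfeb 51.6% with 14, and the first of Tfe3 59.6% with 14. The third start of Mitf was 36.0% G or C with 3 CG, and the start of Tfec 39.2% with 2. The median of all 32851 RefSeq starts was 52.4% with 6 CG. Starts under a peak in all 4 lists had a median of 61.2% with 17.0 CG, and starts under a peak in no list 47.2% with 3. So the third Mitf start had a lower share of G and C than the median start without a peak, and as many CG. The first starts of Mitf, Tfeb and Tfe3 held more CG than the median of all starts, although that of Tfeb was below the median in G and C. Of the starts not printed, the second of Tfeb was 73.2% with 20 CG and the second of Tfe3 54.8% with 6, both under peaks in all lists. The second of Mitf was 58.0% with 4 and the third of Tfeb 60.4% with 6, and neither lay under a peak in any list.

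Of the 9 starts, 6 lay under a peak in all 4 lists: the first and the third of Mitf, the first and second of Tfeb, and both of Tfe3. The other 3, the second of Mitf, the third of Tfeb and the start of Tfec, lay under no peak in any list. Of all RefSeq starts, 39.0% lay under a peak in all lists and 56.6% in none. No member start went from a peak in one group to none in the other.

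4 motifs of factors that bind or act at these genes, and another added after the third Mitf start had been read, were searched on both strands of the 250 bases before each start. CACGTG, the core of the CLEAR element, stood before 6.02% of all starts and before none of the 9. CATGTG, the core of the M-box, stood before 12.3% of all starts and before none of the 9. The full CLEAR palindrome, which contains CACGTG, stood before 0.240% of all starts and before none of the 9. TGACGTCA, the cAMP response element through which melanocortin signalling reaches Mitf, stood before 1.55% of all starts and, among the 9, before the third Mitf start alone. There it begins at base 98 of the printed sequence, 153 bases before the start. CTTTGAT, a core bound by LEF/TCF factors of the Wnt pathway, stood before 3.21% of all starts and, among the 9, again before the third Mitf start alone, from base 46. None of these motifs overlaps another in that sequence. A match is a description of letters and not a site.

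Mitf lies on the plus strand at chr6:97807002-98021360, and its window held 33 regions, 23 of them in the gene body. Per 100 kb this was 10.5 regions, more than in 71.0% of the windows of all 21887 protein-coding genes, whose median was 7.43. The sgScramble lists held 28 and 27 of the 33, and the sgArid1a lists 23 and 25, replicate 1 first here and below. No other protein-coding gene overlapped a region of this window. 20 regions (60.6%) were in all 4 lists, 3 were present in both sgScramble lists and absent from both sgArid1a lists, 1 had the opposite pattern, and 9 had another pattern. Of all regions of the genome, 51.0% were in all 4 lists.

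**Figure D1:**
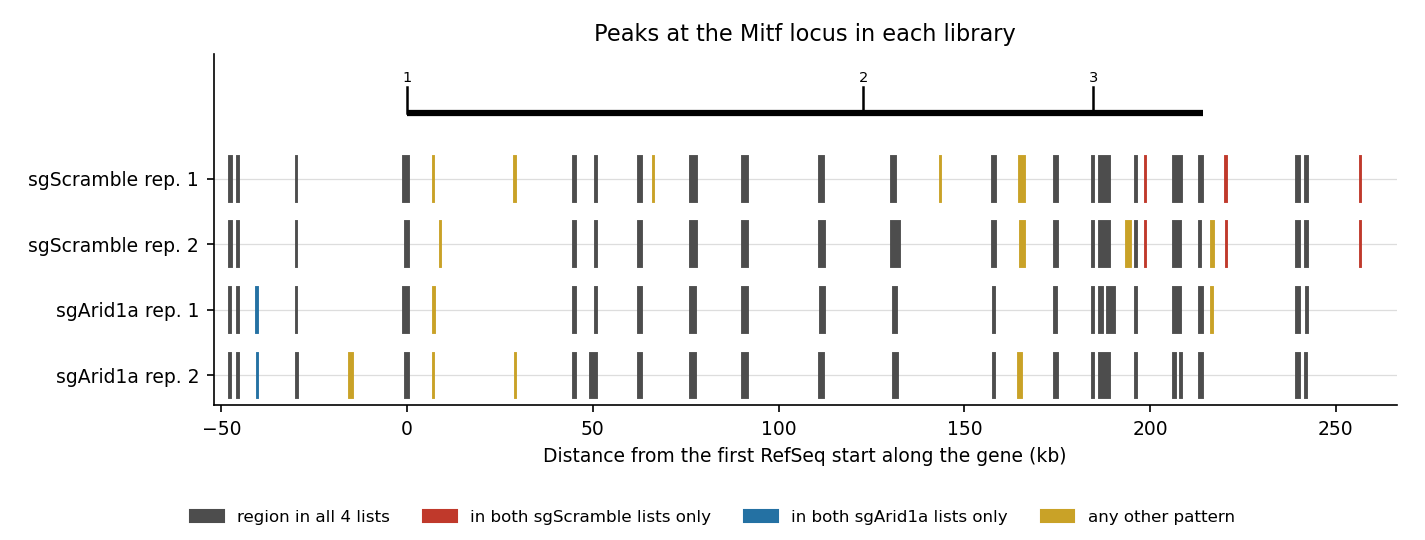
Peaks at Mitf in each library (rows) by distance in kb from the first RefSeq start along the gene (x axis). The black bar is the gene body with its 3 starts, each block is a peak drawn to scale with a thin outline, and colours give the pattern of its region. The grey blocks of the 20 regions in all 4 lists run through the whole window, while the 3 red regions, in both sgScramble lists and absent from both sgArid1a lists, lie after the third start.

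The 2 Mitf starts under peaks did not lose their peaks in sgArid1a. The region over the first start, chr6:97805907-97807677, covered 1771 and 1232 bp in sgScramble and 1770 and 1284 bp in sgArid1a. Its −log10 q was 71.7, 78.8, 51.9 and 73.3, at or above the 97.4th percentile of its list each time. The region over the third start, chr6:97991349-97992048, covered 511 and 591 bp in sgScramble and 700 and 508 bp in sgArid1a. Its −log10 q was 11.8, 12.2, 5.35 and 8.17. At both starts the groups overlapped, and the peak at the third start was the narrower and the weaker of the pair in every list.

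Counted within 2 kb of all its starts, Mitf had 2760 and 2334 bp under peaks in sgScramble and 2973 and 2295 bp in sgArid1a. The means were 2547.0 ± 301 bp (SD, n = 2) and 2634.0 ± 479 bp (SD, n = 2), 103% of sgScramble (exact two-sided permutation test, p = 1). Within 2 kb of the third start alone the values were 989 and 1102 bp against 1203 and 1011 bp, 106% of sgScramble (exact two-sided permutation test, p = 0.667). The groups overlapped at both, and with 2 libraries a group the smallest p this test can give is 0.33. The sign of the difference over all starts turned when some libraries were left out, to -126 bp without sgScramble replicate 2 and -252 bp without sgArid1a replicate 1, and it was 300 bp without sgScramble replicate 1 and 426 bp without sgArid1a replicate 2.

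Between the first and the third start, the gene body held a chain of regions in all 4 lists, most of which were narrower in both sgArid1a lists. Over the whole locus the narrower share was 45.0%, near the genome's 40.6%, so this stretch is a description only. The strongest of the locus by −log10 q was chr6:97981242-97982371, centred at -9.98 kb from the third start, with −log10 q of 93.7, 99.8, 75.9 and 82.1, all at or above the 99.1th percentile. It covered 1130 and 1128 bp in sgScramble and 784 and 901 bp in sgArid1a, 74.6% of the sgScramble mean. Its fold stood at percentiles 76.5, 77.5, 96.4 and 91.0, so the narrower peaks of sgArid1a ranked higher by fold. The region 158 kb into the gene, chr6:97964534-97965592, covered 1059 and 1042 bp in sgScramble and 761 and 771 bp in sgArid1a, 72.9%, and here −log10 q stood at percentiles 75.5 and 79.7 in sgScramble and at 45.3 and 51.8 in sgArid1a. The region 131 kb in, chr6:97937230-97939783, covered 1495 and 2554 bp against 980 and 1195 bp, 53.7%. Its sgScramble replicates differed from each other more than the sgArid1a replicates did.

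Other body regions kept more of their width. The region 77.0 kb in, chr6:97883093-97885081, covered 1957 and 1980 bp in sgScramble and 1797 and 1795 bp in sgArid1a, 91.2%. The region 90.9 kb in, chr6:97897078-97898897, covered 1780 and 1804 bp against 1774 and 1809 bp, and its groups overlapped. The regions 45.0, 62.7 and 112 kb in were 79.9%, 90.4% and 89.2% as wide in sgArid1a, each with both sgArid1a values under both sgScramble values. Of the 20 Mitf regions in all lists, 9 (45.0%) were narrower in both sgArid1a lists than in both sgScramble lists, 0 were wider, and 11 overlapped. Over all regions in all lists, 40.6% were narrower in this sense and 6.45% wider, so the Mitf share is near that of the genome.

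After the third start the widest region of the locus, chr6:97993273-97997694, covered 3036 and 3096 bp in sgScramble and 3405 and 3061 bp in sgArid1a, and its groups overlapped. It was a single peak in 3 lists and was split in sgArid1a replicate 1. The region 207 kb in, chr6:98013250-98015684, covered 2395 and 2175 bp in sgScramble and 2058 and 1119 bp in sgArid1a, 69.5%. The region 240 kb in, past the gene's end at chr6:98046219-98047348, covered 1106 and 1085 bp against 1030 and 993 bp, 92.3%, and its −log10 q was at or above the 96.6th percentile in every list. One wide region before the third start, chr6:97971434-97973420, covered 1736 and 1518 bp in sgScramble and 1069 bp in sgArid1a replicate 2, and had no peak in sgArid1a replicate 1.

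All 3 regions of the family present in both sgScramble lists and absent from both sgArid1a lists lay at Mitf, after the third start. They made up 5.26% of the 57 family regions in both sgScramble lists, beside 12.9% over the genome. At Mitf itself they were 3 of 24 (12.5%), near the genome's share. The first, chr6:98005666-98005985, lies in the gene body 14.0 kb after the third start, covered 249 and 315 bp, and had −log10 q of 11.5 and 9.49. The second, chr6:98027325-98027732, lies 6.17 kb past the gene's end, covered 408 and 328 bp, and had −log10 q of 5.80 and 2.37. The third, chr6:98063584-98063938, lies 42.4 kb past the end, covered 355 and 297 bp, and had −log10 q of 3.12 and 1.44. Their median width was 355.00 bp, against 1328.0 bp for the 43 family regions in all lists. These are widths of merged regions, which can grow with the number of lists that hold a peak there. The −log10 q of the last stood at the 21.1th percentile of sgScramble replicate 1 and the 2.33th of replicate 2. Windows with at least 3 such regions were 6.46% of all gene windows, and 45.8% held at least 1. These shares are not matched for window size: the Mitf window held 33 regions, and the median gene window 10.

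The count of these regions moved with how the lists were read. With every list held to its 65353 strongest peaks by −log10 p, the length of the shortest, the region in the gene body alone was still missing from both sgArid1a lists, while the 2 downstream regions had another pattern. The genome's share in the same lists was 6.97%. Leaving out sgScramble replicate 1 or 2 gave 10 family regions each, leaving out sgArid1a replicate 1 gave 5, and leaving out sgArid1a replicate 2 gave 12. Leaving out a library removes a condition from the definition, so these counts could rise but not fall.

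The family had 2 regions present in both sgArid1a lists and absent from both sgScramble lists, 4.26% of the 47 in both sgArid1a lists, beside 1.39% over the genome. At Mitf it was chr6:97766468-97766970, centred at -40.3 kb from the first start, with 402 and 423 bp covered and −log10 q of 1.29 and 2.11. At Tfeb it was chr17:47823760-47824674, which lies inside the neighbouring gene Mdfi, with 294 and 915 bp covered and −log10 q of 1.95 and 1.87. Both were weak, and neither remained when peaks had to reach a −log10 q of 5. With lists of equal length the family had 4 such regions (8.70%), beside 4.37% over the genome. Those added were chr6:97813920-97814431 at Mitf and chr17:47744873-47745208 at Tfeb. Both had a peak in the full list of sgScramble replicate 1, with −log10 q of 1.70 and 1.34, which the cut to equal length removed. Leaving out sgScramble replicate 1 or sgArid1a replicate 2 gave 4 each, and leaving out sgArid1a replicate 1 gave 3. Here too a condition is removed, so the count could rise but not fall.

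Tfeb lies on the plus strand at chr17:47737037-47792416, and its window held 25 regions, 8 of them in the gene body. This was 16.1 regions per 100 kb, more than in 98.4% of gene windows. The lists held 19 and 19 of them in sgScramble and 14 and 18 in sgArid1a. Of the 25, 14 were nearer to an end of another gene (Frs3, Prickle4, Pgc or Mdfi) than to an end of Tfeb, so the window is not Tfeb's alone. 11 regions (44.0%) were in all lists, 0 were present in both sgScramble lists and absent from both sgArid1a lists, 1 had the opposite pattern, and 13 had another pattern.

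One region covered both the first and second Tfeb starts and had the highest −log10 q of the 4 loci in every list. It spans chr17:47736893-47738462, covered 1542 and 1567 bp in sgScramble and 1547 and 1522 bp in sgArid1a, and had −log10 q of 99.4, 116, 76.3 and 96.2. Within 2 kb of the starts the means were 1554.5 ± 17.7 bp (SD, n = 2) and 1534.5 ± 17.7 bp (SD, n = 2), 98.7% of sgScramble (exact two-sided permutation test, p = 0.667). The groups overlapped. In the gene body, the region 26.0 kb in, chr17:47762338-47763829, covered 1411 and 1477 bp against 1351 and 1404 bp, 95.4%, with −log10 q from 55.2 to 93.5. The region 19.7 kb in, chr17:47755910-47757631, covered 1674 and 1230 bp against 1244 and 1157 bp, and its groups overlapped. Of these 3 regions the one over the starts differed least in width. Between them lay 2 regions that were not in all lists, 8.0 and 12.2 kb from the first start.

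Past the end of Tfeb, the region chr17:47830099-47833910 at Mdfi, a gene for an inhibitor of myogenic factors, covered 3686 and 3794 bp in sgScramble and 2458 and 2528 bp in sgArid1a, 66.7%. Of the 11 Tfeb regions in all lists, 6 (54.5%) were narrower in both sgArid1a lists and 0 wider, beside 40.6% and 6.45% over the genome. 4 regions, 40.2, 45.2, 68.5 and 101 kb from the first start, had peaks in both sgScramble lists and in sgArid1a replicate 2 but not in sgArid1a replicate 1. The 2 in the gene body covered 487 and 822 bp, and 564 and 438 bp, in sgScramble, and 346 and 1529 bp in sgArid1a replicate 2. The 4 regions were picked by this pattern, so the peak of sgArid1a replicate 2 there is no separate result. At the first of them it covered fewer bases than either sgScramble peak. Absence from sgArid1a replicate 1 alone held for 4 of the 15 Tfeb regions in both sgScramble lists (26.7%), and for 10.2% over the genome.

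Tfe3, which sits on the X chromosome, spans chrX:7762530-7775202 on the plus strand and is the shortest of the 4 genes. Its window held 15 regions, 3 of them in the gene body, or 13.3 per 100 kb, more than in 89.4% of gene windows. The lists held 15 and 13 of them in sgScramble and 11 and 13 in sgArid1a. 10 were nearer to an end of another gene (Gpkow, Wdr45, Praf2, Ccdc120 or Gripap1), among them those over the ends of Wdr45, an autophagy gene, and Praf2. 10 regions (66.7%) were in all lists, 0 were in both lists of one group and in neither of the other, and 1 was in sgScramble replicate 1 only.

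The region over both Tfe3 starts, chrX:7762216-7764319, covered 1925 and 2002 bp in sgScramble and 2005 and 2009 bp in sgArid1a. It was the 1 family region of the 43 in all lists (2.33%) that was wider in both sgArid1a lists than in both sgScramble lists, by 43.5 bp on means of 1963.5 and 2007.0 bp. Its −log10 q was 18.8, 22.1, 15.3 and 19.7, between the 77.3th and 80.9th percentiles. Within 2 kb of both starts, where a second region adds to it, the values were 2250 and 2413 bp against 2179 and 2401 bp. Their means were 2331.5 ± 115 bp (SD, n = 2) and 2290.0 ± 157 bp (SD, n = 2), 98.2% (exact two-sided permutation test, p = 0.667), and the groups overlapped. That difference, -41.5 bp, turned to 40 bp without sgScramble replicate 2 and to 69.5 bp without sgArid1a replicate 1.

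Of the other Tfe3 regions, the one over the end of Wdr45, chrX:7721686-7723013, covered 1322 and 1328 bp against 1241 and 1298 bp. The region inside Gripap1 at chrX:7814990-7816323 covered 1334 and 1165 bp in sgScramble, 0 bp in sgArid1a replicate 1 and 341 bp in replicate 2, 13.6% of the sgScramble mean. A further region, at -8.89 kb from the first start, was also missing from sgArid1a replicate 1 alone, and one at -28.8 kb, inside Ccdc120, from sgArid1a replicate 2 alone. In 3 of the 10 Tfe3 regions in all lists (30.0%) both sgArid1a values lay under both sgScramble values, beside 40.6% over the genome.

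Tfec, on the minus strand at chr6:16830927-16898464, had the fewest regions: 9, or 5.37 per 100 kb, more than in 37.6% of gene windows. The lists held 7 and 6 of them in sgScramble and 5 and 4 in sgArid1a, and no other gene's end lay nearer. Within 2 kb of its start the covered length was 0 bp in all 4 libraries. Just 2 regions (22.2%) were in all lists. One, chr6:16891414-16892509, lies 6.48 kb into the gene and covered 946 and 1092 bp in sgScramble and 950 and 1042 bp in sgArid1a. Its −log10 q was 23.6 and 23.5 in sgScramble and 6.13 and 8.63 in sgArid1a, or percentiles 81.9, 81.6, 56.1 and 62.7 of the lists. Its width was thus much alike in the 4 lists while its rank was lower in both sgArid1a lists. The other, chr6:16817256-16818879, lies past the end of the gene and covered 1470 and 1256 bp in sgScramble and 395 and 1477 bp in sgArid1a, so the groups overlapped.

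The remaining Tfec regions were each absent from at least 1 list. One 24.4 kb into the gene, chr6:16873466-16874519, covered 819 and 1054 bp in sgScramble, 0 bp in sgArid1a replicate 1 and 937 bp in replicate 2. One 13.1 kb in covered 600 and 512 bp in sgScramble, 903 bp in sgArid1a replicate 1 and 0 bp in replicate 2. One 101 kb from the start was missing from sgArid1a replicate 1 alone, 3 were in a single list, and the last was in 1 list of each group.

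Over each whole locus, both sgArid1a libraries had fewer bases under peaks than both sgScramble libraries. Mitf had 28116 and 28717 bp in sgScramble and 23230 and 25318 bp in sgArid1a, means of 28416 ± 425 and 24274 ± 1476 bp (SD, n = 2 each; exact two-sided permutation test, p = 0.33), 85.4% of sgScramble. Tfeb had 19757 and 19377 bp against 14731 and 18109 bp, means of 19567 ± 269 and 16420 ± 2389 bp (SD, n = 2 each; exact permutation p = 0.33), 83.9%. Tfe3 had 13401 and 13408 bp against 10539 and 12803 bp, means of 13404 ± 4.95 and 11671 ± 1601 bp (SD, n = 2 each; exact permutation p = 0.33), 87.1%. In these 3 genes sgArid1a replicate 1 was the lower library. Tfec had 5621 and 4576 bp against 4133 and 3798 bp, means of 5098.5 ± 739 and 3965.5 ± 237 bp (SD, n = 2 each; exact permutation p = 0.33), 77.8%, and here sgArid1a replicate 2 was the lower. No p can go below 0.33 in this design, so none of these differences could pass a threshold of 0.05.

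Of all gene windows with covered length, 65.8% were likewise less covered in both sgArid1a libraries than in both sgScramble libraries, and the median window kept 82.0% of the sgScramble length (quartiles 73.0% and 90.0%). The 4 members, at 77.8% to 87.1%, lie within those quartiles. With lists of equal length the Mitf difference turned from -4142.5 to 90.0 bp, while those of Tfeb, Tfe3 and Tfec went from -3147.0 to -1534.5, from -1733.5 to -339.50 and from -1133.0 to -300.50 bp. Without sgArid1a replicate 1 the Tfeb difference was -1458 and the Tfe3 difference -601.5 bp, and without sgArid1a replicate 2 they were -4836 and -2865.5 bp. Without sgScramble replicate 1 the Tfec difference was -610.5 bp. In the gene body alone the groups stayed apart at Mitf (82.1%) and Tfec (76.3%; exact permutation p = 0.33 for both) and overlapped at Tfeb (89.6%) and Tfe3 (89.4%; exact permutation p = 0.667 for both).

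**Figure D2:**
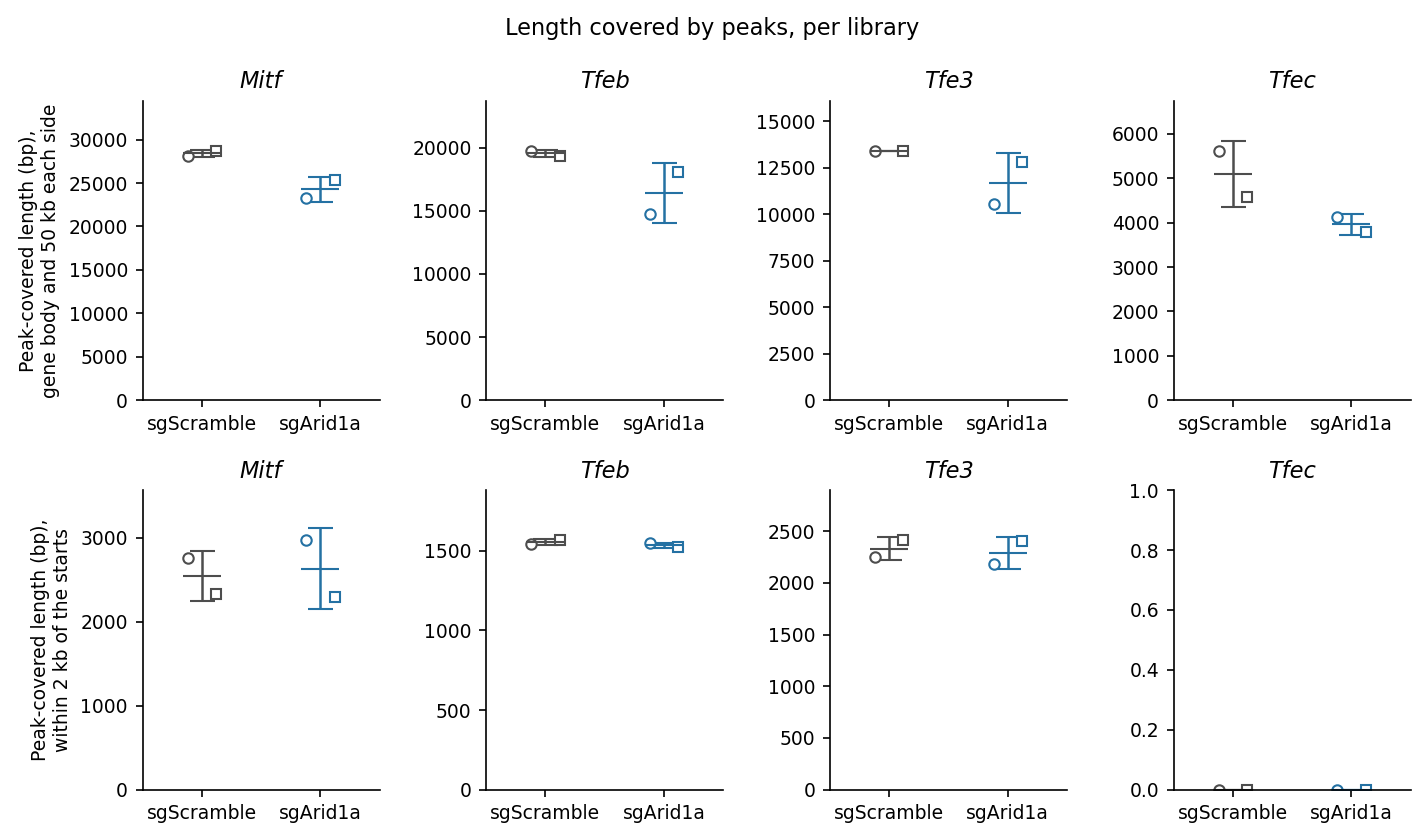
Length under peaks in bp (y axes, from 0) per library for each gene, over the whole window (top) and within 2 kb of its starts (bottom). Circles are replicate 1, squares replicate 2, long dashes the group mean and bars the SD (n = 2). In the top row both sgArid1a points lie under both sgScramble points for all 4 genes, and in the bottom row the points of the groups overlap, with Tfec at 0.

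Taking the 4 loci as one set, the number of regions present was 69 and 65 in the sgScramble lists and 53 and 60 in the sgArid1a lists. 43 of 82 (52.4%) were in all lists, close to the genome's share. Among the 57 in both sgScramble lists, 9 (15.8%) were missing from sgArid1a replicate 1 alone and 2 (3.51%) from replicate 2 alone, where the genome had 10.2% and 4.54%. 18 of the 43 in all lists (41.9%) were narrower in both sgArid1a lists, near the genome's 40.6%. A further 16 regions were in a single list, 13 of them in an sgScramble list. Over the genome 22.3% of regions were in a single list, and 61.3% of these in an sgScramble list. The regions with other patterns had a median width of 509.50 bp, below the 1328.0 bp of those in all lists. A merged region spans the peaks of every list that holds it, so its width can grow with the number of lists.

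Many of the peaks after the third Mitf start ranked much higher by −log10 q than by fold, the authors' ratio of signal over background. The region over that start stood at fold percentiles 16.3, 17.8, 3.79 and 6.02 of its lists, and at −log10 q percentiles 65.5, 66.6, 51.8 and 61.2. The wide region after it stood at fold percentiles 3.11 and 3.03 in sgScramble, and at −log10 q percentiles 47.5 and 48.9. A region past the gene, chr6:98048753-98049653, stood at fold percentiles 4.23, 4.61, 1.11 and 0.800, and at −log10 q percentiles 63.9, 65.6, 46.0 and 44.9. Of the 39 Mitf peaks ending at or after the third start, 22 (56.4%) ranked at least 25 points higher by −log10 q than by fold, against 1 of 66 (1.52%) before it and 9.39% of all peaks. The point of division was chosen after the values were seen, so this is a description with no test. The pattern was present in both groups, and at 7 of the 12 regions there. The strong region at chr6:98046219-98047348 and that at chr6:98002917-98003554 had it in the sgScramble lists only. The region at chr6:98005666-98005985, which has no sgArid1a peak, had it in sgScramble replicate 1 alone. That at chr6:98063584-98063938 ranked lower by −log10 q than by fold.

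The same gap occurred at other members. The region over both Tfe3 starts stood at fold percentiles 25, 28.8, 40.0 and 38.9 against −log10 q percentiles 77.3, 80.5, 78.7 and 80.9. The region at Mdfi stood at 6.81, 5.20, 41.7 and 29.3 against 66.8, 66.1, 77.4 and 73.7. In all, 20 of 70 Tfeb peaks (28.6%), 8 of 52 Tfe3 peaks (15.4%) and 0 of 22 Tfec peaks showed it.

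**Figure D3:**
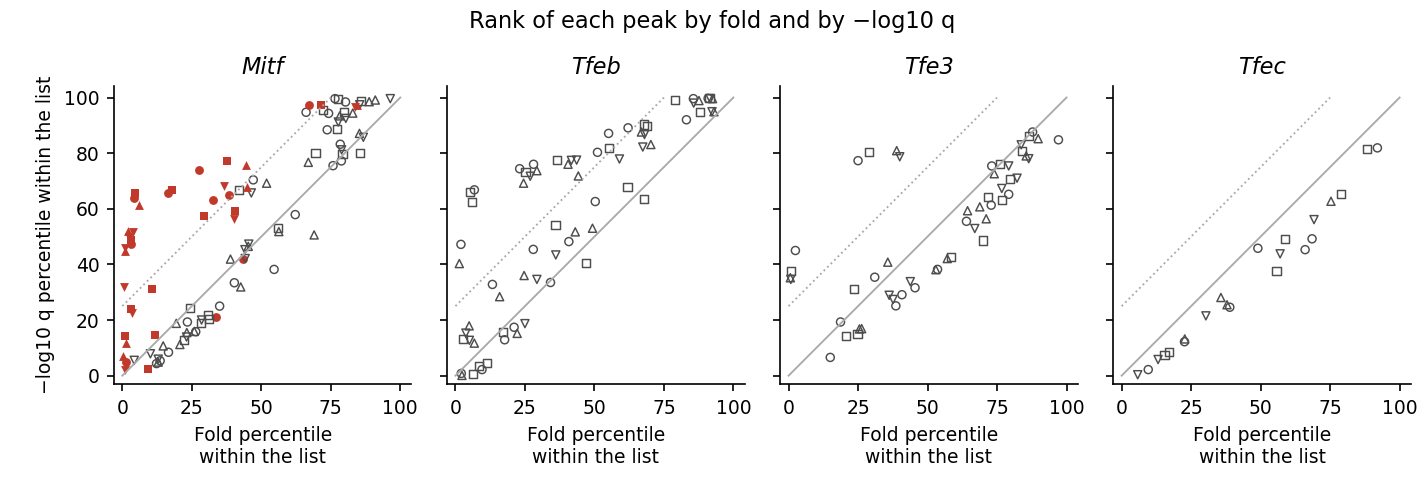
Each peak of the 4 loci by the percentile of its fold (x axis) and of its −log10 q (y axis) within its own list. Circles and squares are sgScramble replicates 1 and 2, downward and upward triangles sgArid1a replicates 1 and 2, and filled red points are Mitf peaks ending at or after the third start. The solid line marks equal percentiles and the dotted line 25 points above it. Most red points (22 of 39) lie on or above the dotted line, and no Tfec peak does.

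Genes listed as acting before Mitf, those it controls, and those of the related pathways were read over the same windows, from 5 lists of genes. All 5 rest on the same 4 libraries and are given as counts without a test. A region is called sgScramble-only where both sgScramble lists held it and both sgArid1a lists lacked it, and sgArid1a-only in the opposite case. Over the genome these made up 12.9% and 1.39% of the regions in both lists of the group, 45.8% of gene windows held an sgScramble-only region, and 65.8% of windows were less covered in both sgArid1a libraries. Among 14 genes listed as acting on Mitf, 10 held an sgScramble-only region. Such regions made up 21 of the 139 in both sgScramble lists (15.1%, near the genome's 12.9%). Sox10, which binds the melanocyte promoter of Mitf, held 3 of 15, and Zeb2, a repressor of epithelial genes that is expressed in melanocytes, 3 of 16. Tcf4, an E-protein, held 3 of 17. Zeb2 also held the list's 1 sgArid1a-only region (0.909% of 110). 13 of the 14 genes were less covered in both sgArid1a libraries, with a median of 79.0% of sgScramble.

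Among 24 Mitf target genes, 18 held an sgScramble-only region, 38 of 269 regions (14.1%, near the genome's 12.9%). The survival gene Bcl2 held 5 of 16, and its window kept 71.6% of the sgScramble length. Met, the receptor of hepatocyte growth factor, held 4 of 20 (70.4%). Oca2, a melanosome transport protein, held 4 of 20 (57.4%). 6 regions (2.80% of 214, beside 1.39% over the genome) were sgArid1a-only, of which Met held 2 and the melanosome receptor Gpr143 and the kinase Cdk2 1 each. The Cdk2 window lies inside that of the melanocyte marker Pmel, so its region belongs to both windows and was counted once. 17 of the 24 genes were less covered in both sgArid1a libraries, and the median was 77.8%.

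Among 32 lysosome and autophagy genes, targets of Tfeb and Tfe3, 19 held an sgScramble-only region, 27 of 349 regions (7.74%, below the genome's 12.9%). Lamp1, a protein of the lysosome membrane, held 4 of 14 and kept 60.4% of the sgScramble length. The lysosomal calcium channel gene Mcoln1 held 2 of 10 (84.7%), and Map1lc3b, which marks autophagosomes, 2 of 11 (85.5%). 2 regions (0.712% of 281) were sgArid1a-only, 1 at Atp6v1a, a proton pump subunit, and 1 at Ctsd, a lysosomal protease. 26 of the 32 genes were less covered in both sgArid1a libraries, with a median of 82.6%.

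Among 25 genes that control the entry of Tfeb and Tfe3 into the nucleus, 17 held an sgScramble-only region, 37 of 285 (13.0%, beside 12.9% over the genome). Gsk3b, a kinase that phosphorylates proteins of the family, held 7 of 21 and kept 67.6% of the sgScramble length. Rptor, the mTORC1 scaffold, held 4 of 37 (71.9%), and Rheb, the GTPase that activates mTORC1, 3 of 9 (72.8%). 4 regions (1.79% of 224) were sgArid1a-only. Among these were 1 each at Ppp3cb, a calcineurin subunit, and at Fnip1, a partner of folliculin. 20 of the 25 were less covered in both sgArid1a libraries, with a median of 82.9%. Among 13 other factors with the same domain type, 5 held an sgScramble-only region, 10 of 120 (8.33%, below the genome's 12.9%), and 0 of 99 regions were sgArid1a-only. Max, the partner of Myc, held 5 of 10 and kept 57.8%. Usf2 held 2 of 8 (83.9%) and Usf1 1 of 7 (93.5%). 8 of the 13 were less covered, with a median of 85.6%.

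No gene of the 5 lists was more covered in both sgArid1a libraries than in both sgScramble libraries. The medians, from 77.8% to 85.6%, lie between the quartiles of all windows, as did the family's own median of 84.7%. With lists of equal length, sgScramble-only regions made up 7.41% of those of the genes upstream of Mitf, 4.39% of its targets, 2.80% of the lysosome genes, 7.02% of the nuclear entry regulators and 1.94% of the other factors, beside 6.97% over the genome. The sgArid1a-only regions were then more numerous: 6 of 105 upstream of Mitf (5.71%), 14 of 206 at its targets (6.80%), 14 of 280 at the lysosome genes, 9 of 218 at the nuclear entry regulators (4.13%) and 2 of 99 at the other factors (2.02%), beside 4.37% over the genome. At the Mitf targets the balance of sgScramble-only to sgArid1a-only regions thus turned from 38 against 6 to 9 against 14, and at the lysosome genes from 27 against 2 to 8 against 14. It did not turn upstream of Mitf (8 against 6), at the nuclear entry regulators (16 against 9) or over the genome (4105 against 2361). The other factors had 2 against 2. The cut drops the weakest peaks of the longer lists, so it can itself make a region sgArid1a-only.

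**Figure D4:**
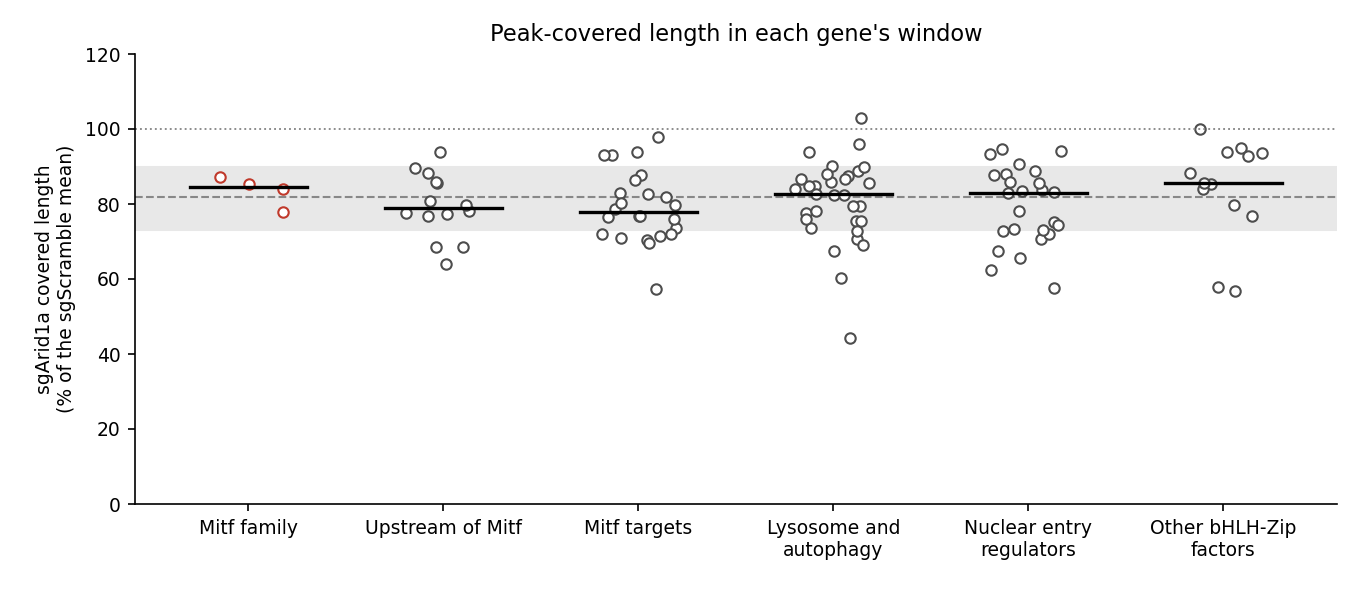
Covered length of each gene's window in sgArid1a as a percentage of the sgScramble mean (y axis, from 0), by gene list. Points are genes, black lines list medians, the dashed line and grey band the median and quartiles of all windows (82.0%, 73.0% and 90.0%), and the dotted line equality. The 4 red family points lie within the band, and the list medians range from 77.8% to 85.6%.

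By the share of covered length that each of the 4 libraries contributed, the Mitf window (26.7%, 27.3%, 22.0% and 24.0%) was most like those of H2ax, Tigd3 and B4galnt1, at summed absolute differences of 0.054, 0.19 and 0.29 points among 11547 genes with at least 10 regions. For Tfeb (27.5%, 26.9%, 20.5% and 25.2%) the nearest were Pcolce, Celf5 and Ppid, at 0.20, 0.20 and 0.28 points. For Tfe3 (26.7%, 26.7%, 21.0% and 25.5%) they were R3hdm2, Tfr2 and Arfip1, at 0.32, 0.34 and 0.35 points. Tfec (31.0%, 25.2%, 22.8% and 21.0%) had no candidate gene as near, with Nptx1, Timm17b and Ldb1 at 1.0, 1.2 and 1.4 points. Its own window has 9 regions, so genes with as few regions were not among the candidates, and its distances do not show it to be unlike them. Likeness over 4 libraries that all these genes share is a description only.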

How the data were processed

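Omni-ATAC libraries of B16F10 cells, 2 sgScramble and 2 sgArid1a, were grouped and numbered by their titles, although the sgScramble lists name their peaks sgNT. The authors deposited 1 broad peak list for each library, not for pooled reads. Deposited with each peak are a score (the whole-number part of 10 times −log10 q in 99.99% to 100% of peaks), a fold, which is a ratio over background, and −log10 values of its p and q. The submitters' processing notes name STAR 2.5.3a, HOMER, GRCm38 and mm10 without their roles. The sources used here do not name the peak caller, its control or any shift of read ends for Tn5, each of which bears on peak edges and width. Peaks were compared between lists by presence and covered length, and the deposited fold and −log10 values were used within a list to rank, filter and describe peaks. The lists carry no read counts, so no counting interval can be given.

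Peaks overlapping by at least 1 bp were merged across the lists. Covered length was compared by an exact two-sided permutation test over libraries. Genes came from RefSeq GRCm38.p6 (all 138 listed symbols matched) and starts from its promoter table, which gave strands, so start sites were used and not gene ends. Exons and introns were not used here. The scripts (Python 3.11.15, numpy 2.4.6, pandas 2.3.3, matplotlib 3.10.9) were tested on simulated data. Members and gene lists were chosen with earlier results of these data known. Named genes were, per list, up to 3 with the most sgScramble-only regions and up to 3 with the most sgArid1a-only regions, the markers, 3 genes of the most similar covered shares per member, and neighbours in a window; 1 gene that this rule names is not reported here. Alternatives were equal list lengths, stricter peak thresholds, other windows and merging, leaving out each library, and pairing by replicate number. Those for the start windows, the narrower or wider regions, the regions missing from 1 sgArid1a library and the pathway lists were added after seeing the data, as was the CTTTGAT motif.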

Additional observations from a re-analysis of the deposited data

How the results depend on the processing

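Of 131 alternative values over these results, 87 kept their direction (counts within 1.5 times), 38 counts moved further and 6 differences reversed. The 87 include replicate-block values, fixed by construction, and differences at the loci with a library left out, whose sign could not change. Regions found in both sgScramble lists alone (3) numbered 1 with lists of equal length, 8 with −log10 q of at least 5, 5 in the upper 50% by fold, 1 in the gene body alone, 5 with 100 kb on each side, 7 when a peak had to cover 50% of the region, and 1 when presence needed −log10 q of at least 5 and absence the full list. Leaving out a library gave 5 to 12. Regions found in both sgArid1a lists alone (2) numbered 4 with equal lengths, 1 with peaks within 1 kb merged, 1 at 50% overlap, and 0 with −log10 q of at least 5, the upper 50% by fold, peaks of at least 500 bp, the gene body alone, 10 kb on each side, or the stricter presence. Leaving out a library gave 2 to 4. Regions in all lists (43) numbered 19 in the upper 50% by fold, 21 in the gene body alone and 25 with 10 kb on each side, and 43 to 52 when a library was left out. Each definition has fewer conditions with a library left out, so the counts of regions in both lists of 1 group alone could not fall.

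Of 48 alternative values of covered length at a locus, 47 kept their sign and 1 reversed, Mitf with equal lengths (90.0 bp). Some of the 47 could not have reversed. The replicate block leaves the difference as it is. At each locus both sgArid1a values lay under both sgScramble values, so leaving out 1 library could not change the sign. Without 1 library the differences ran from -5186.5 to -3098.5 bp at Mitf, -4836 to -1458 at Tfeb, -2865.5 to -601.5 at Tfe3 and -1655.5 to -610.5 at Tfec. Of 21 values at the starts, 5 reversed: at Mitf -164.5 bp with −log10 q of at least 5, -126 and -252 when a library was left out (range -252 to 426), and at Tfe3 40 and 69.5 when a library was left out (range -152.5 to 69.5). Regions missing from sgArid1a replicate 1 alone (9) numbered 7 with equal lengths and 4 with −log10 q of at least 5, and narrower regions (18) numbered 16 and 12. The causes were not tested.

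Same-numbered libraries did not deviate together (correlation 0.0119 over 52885 regions), so the numbers are not shown to pair. With the replicate block the counts of 3 and 2 and the covered-length differences (-4142.5, -3147.0, -1733.5 and -1133.0 bp at the loci) stayed as they were by construction, with an exact sign-flip p of 0.5 at each locus, the smallest that 2 pairs can give. Without read counts, what depth limits cannot be stated, and a weak peak missing from a shorter list may be present below its threshold.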
